A study of Homo sapiens with 12 samples.

Results

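RNA levels of 35 genes of glycolysis, lactate export and glycogen metabolism were followed after plasmids or siRNAs directed at SIRT1 in Caco-2, an epithelial line from a human colorectal adenocarcinoma. The genes were chosen by pathway: glucose transporters, the enzymes from hexokinase to lactate dehydrogenase, pyruvate dehydrogenase kinases, lactate transporters, and enzymes that make or break down glycogen. Earlier results of these data were known when they were chosen. Of these 35 genes, 33 had an array probe annotated to that gene alone. For 32 of them at least 1 probe was detected on 2 or more of the 12 arrays, out of 11458 genes measured in all. No probe of PKLR, the liver and red cell pyruvate kinase, passed this filter. The lactate transporters SLC16A1 and SLC16A3 were not analysed here, so lactate export itself was not measured.

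Glycolysis splits glucose into pyruvate. Its pace is set mainly at glucose entry, hexokinase, phosphofructokinase and pyruvate kinase, and the PFKFB enzymes make and remove fructose 2,6-bisphosphate, the signal that activates phosphofructokinase. Lactate dehydrogenase turns pyruvate into lactate, while pyruvate dehydrogenase kinases keep pyruvate out of the mitochondria. In many cells low oxygen raises a set of these genes through the hypoxia-inducible factors, and in liver cells of mice SIRT1 has been linked to the control of glucose metabolism.

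The study compared 5 groups, all of Caco-2 cells. The plasmid groups received the Sirt1 overexpression construct pCMV-ENTRY Sirt1 (OE Sirt1, n = 3 arrays) or the empty vector pCMV-Neo (OE control, n = 3). In the siRNA groups, cells were given a low-GC scrambled siRNA (siRNA control, n = 2) or 1 of a pair of SIRT1 siRNAs with separate target sites (KD1, n = 2; KD2, n = 2), and were lysed 72 h later. The labels give no time of lysis after the plasmids. Replicates were labelled biological; KD2 carries the numbers 2 and 3. Every group is a transfected population of 1 cell line, with no untransfected cells for comparison.

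Levels are log2 intensities after background correction and quantile normalisation. Each probe has its own brightness, so a level is compared between arrays and never between genes. On each array 32.5% to 38.1% of the probes were detected. SIRT1, a protein deacetylase that uses NAD, was lower with KD1 (log2 fold change -1.39, SE 0.22, limma adjusted p = 0.0472) and had a log2 fold change of -1.21 with KD2 (SE 0.22, adjusted p = 0.0507). With the plasmid its probe gave 0.00 on the same scale (-0.00332, SE 0.18, adjusted p = 1.00), and whether that probe reads the transfected sequence is not known here. All 10 epithelial markers were measured. EPCAM, CDH1, VIL1 and the others were detected on all 12 arrays, except KRT20, which was detected on 3. KD1 1, the first KD1 array, and to a lesser degree KD2 2 stood apart from the other siRNA arrays in the genes described here. Where a fold change of a named gene rests on them, values by array or with arrays left out are given.

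None of the 32 genes passed the threshold of an adjusted p below 0.05 in any comparison that manipulated SIRT1. The share of all 11458 genes that passed was 0% for OE Sirt1, 0.175% for KD1, 0.436% for KD2, 0.201% for the mean of both siRNAs and 0.62% for KD1 against KD2. At an unadjusted p below 0.05, OE Sirt1 had 1 gene of the 32 higher and 0 lower, where 2.08% of all genes were higher and 1.45% lower. KD1 had 3 higher and 1 lower, where 3.75% and 5.44% of all genes were, and KD2 had 1 higher and 0 lower, where 4.61% and 8.09% were. The mean of both siRNAs had 2 higher and 0 lower, against 3.85% and 6.69% of all genes. KD1 against KD2 had 0 in either direction, against 6.97% and 5.11%.

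The scrambled siRNA arrays and the empty vector arrays, in contrast, differed in this pathway. Between these controls 11 of the 32 genes were higher in the siRNA control and 0 were lower, where 3.78% of all genes were higher and 1.27% lower, 5.04% in all. The genes that rose were HK2, PFKFB3, PFKFB4, ALDOC, PGK1, ENO2, LDHA, PDK3, PPP1R3C, GBE1 and PGM1. The median log2 fold change over the 32 genes was 0.54, beside -0.01 over all genes. At an unadjusted p below 0.05, 20 genes were higher and 0 lower, beside 12.7% and 10.5% of all genes. The control arrays did not overlap in 24 genes that were higher and 3 that were lower, beside 22.1% and 22% of all genes. Because the genes were chosen with earlier results of these data known, these counts are no separate test of the pathway. The controls differ in the kind of nucleic acid transfected and in the experiment, which cannot be told apart.

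**Figure D1:**
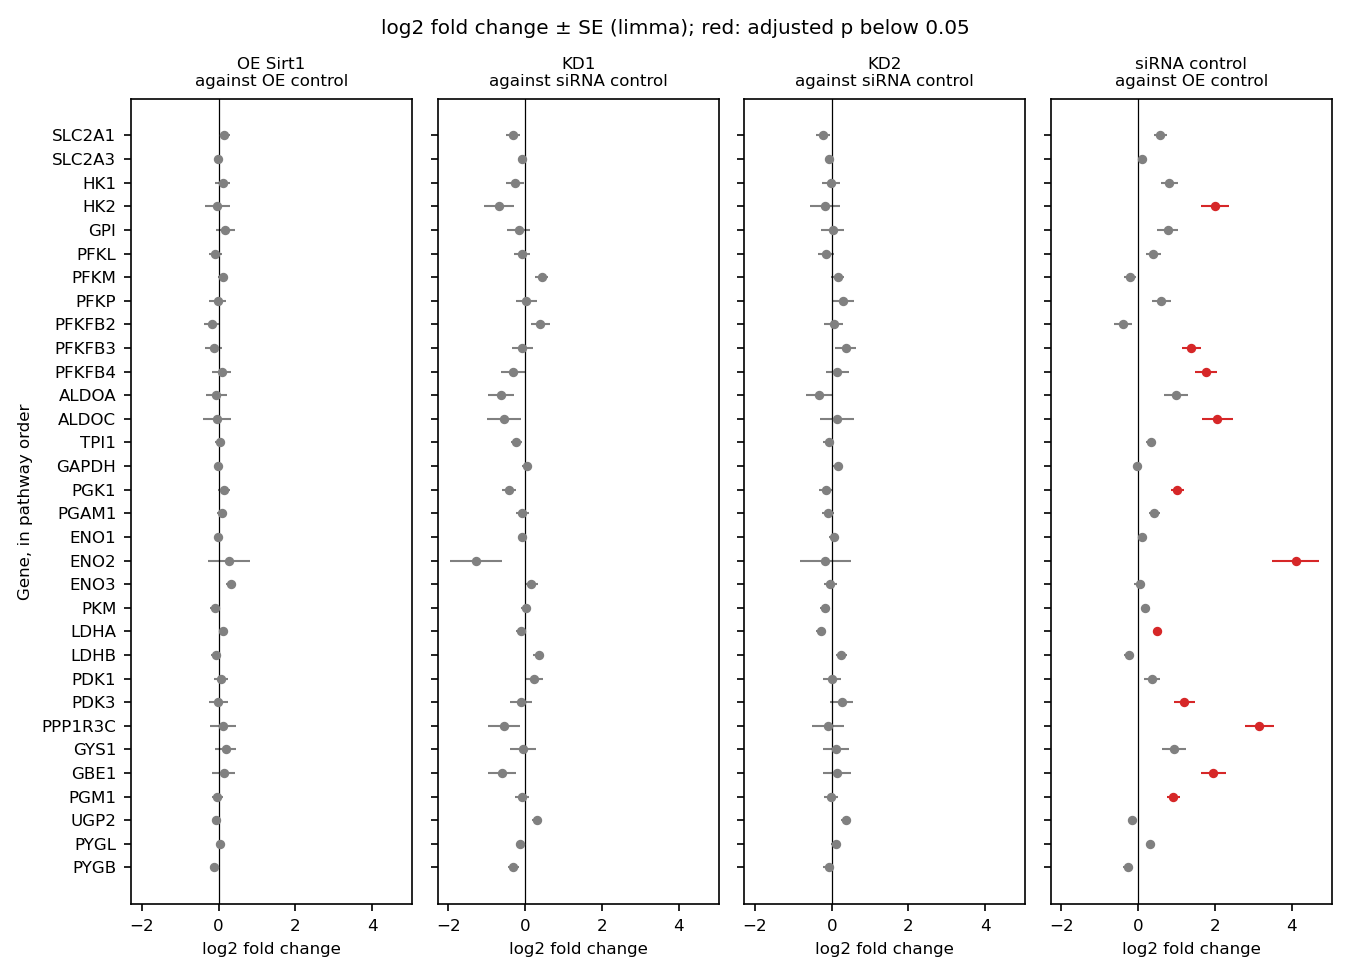
The log2 fold change of each of the 32 genes is plotted with its standard error for OE Sirt1, KD1, KD2 and the comparison of the controls, with genes in pathway order and red points where the adjusted p was below 0.05. Red points appear only in the right panel, where 11 genes lie to the right of 0, with ENO2 at 4.10 and PPP1R3C at 3.16, fitted values for probes not detected on the OE control arrays.

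Promoter sequences are shown for the 3 genes with the largest difference between the controls, for PGK1 and, as a gene that did not pass the test, for GAPDH. They are the 250 bases before the annotated start in RefSeq (GRCh38.p14), written 5′ to 3′ on the gene's strand. The intervals are chr12:6914330-6914579 (plus strand) for ENO2, chr10:91633072-91633321 (minus strand) for PPP1R3C, chr17:28576896-28577145 (minus strand) for ALDOC, chrX:78103998-78104247 (plus strand) for PGK1 and chr12:6535014-6535263 (plus strand) for GAPDH. Capitals mark ACGTG or GCGTG, the core letters bound by hypoxia-inducible factors, and their reverse complements CACGT and CACGC. Where ACGTG overlaps CACGT, as in CACGTG, both were counted.
ENO2: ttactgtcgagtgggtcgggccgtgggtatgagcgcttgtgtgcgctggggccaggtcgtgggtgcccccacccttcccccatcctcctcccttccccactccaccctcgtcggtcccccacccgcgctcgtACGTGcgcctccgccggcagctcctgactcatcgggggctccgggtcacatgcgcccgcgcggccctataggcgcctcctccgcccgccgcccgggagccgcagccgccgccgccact
PPP1R3C: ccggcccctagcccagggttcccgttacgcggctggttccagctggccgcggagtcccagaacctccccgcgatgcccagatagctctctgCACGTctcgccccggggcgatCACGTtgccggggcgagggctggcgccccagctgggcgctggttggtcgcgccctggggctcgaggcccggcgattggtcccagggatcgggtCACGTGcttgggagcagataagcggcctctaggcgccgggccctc
ALDOC: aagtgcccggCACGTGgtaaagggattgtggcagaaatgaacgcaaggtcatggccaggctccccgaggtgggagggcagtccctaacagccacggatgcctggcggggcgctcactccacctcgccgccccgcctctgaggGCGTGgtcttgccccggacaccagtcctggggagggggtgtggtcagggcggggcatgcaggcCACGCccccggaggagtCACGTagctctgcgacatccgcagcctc
PGK1: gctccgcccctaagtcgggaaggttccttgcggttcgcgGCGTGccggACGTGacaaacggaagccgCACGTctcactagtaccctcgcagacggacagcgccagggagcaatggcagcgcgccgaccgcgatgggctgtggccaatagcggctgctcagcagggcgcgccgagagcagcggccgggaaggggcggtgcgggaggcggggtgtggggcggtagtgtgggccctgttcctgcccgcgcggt
GAPDH: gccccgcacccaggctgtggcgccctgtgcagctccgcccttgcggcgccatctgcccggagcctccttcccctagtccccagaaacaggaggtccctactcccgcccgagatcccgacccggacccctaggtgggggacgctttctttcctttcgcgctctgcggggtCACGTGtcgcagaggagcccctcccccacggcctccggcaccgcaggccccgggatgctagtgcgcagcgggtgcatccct

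These windows hold 1 match in ENO2, 4 in PPP1R3C, 5 in ALDOC, 3 in PGK1 and 2 in GAPDH. PGK1 was not chosen by rank. GBE1 and PFKFB4, which differed more than PGK1 between the controls, are not shown, and their single entries hold 2 and 1 matches. The ENO2 match starts 118 bases before the annotated start, and the GAPDH matches lie 81 and 80 bases before it. Promoter entries were found for 32 of the 35 genes, and SLC2A3, PFKFB2 and SLC16A1 had none. Among the 18 genes with a single entry, 13 held a match, and these included 7 of the 7 that rose between the controls and 6 of the 11 measured genes that were not called. Of all 22126 genes with a single entry, 42.2% held one. A match to letters this short does not show binding.

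At glucose entry, neither transporter passed the test in any comparison. SLC2A1 (GLUT1), the facilitative transporter of most tissues, read 12.73, 12.58 and 12.53 on the OE control arrays, 12.78, 12.74 and 12.78 with OE Sirt1, 13.33 and 13.05 in the siRNA control, 12.76 and 12.98 with KD1, and 12.67 and 13.25 with KD2. Its highest level was on a siRNA control array, and the controls did not overlap (log2 fold change 0.58, SE 0.17, adjusted p = 0.0736). SLC2A3 (GLUT3), a transporter with high affinity for glucose, read 14.12, 14.12 and 14.07 in the OE control, 14.06, 14.10 and 14.13 with OE Sirt1, 14.20 and 14.19 in the siRNA control, 14.11 and 14.11 with KD1, and 14.10 and 14.15 with KD2. All its arrays lay within a narrow band near the top of the scale, which ended at 14.44 on each array.

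Hexokinase traps glucose as glucose 6-phosphate. HK1, the form found in most tissues, read 11.00, 10.69 and 10.85 in the OE control, 10.94, 10.98 and 10.95 with OE Sirt1, 11.80 and 11.51 in the siRNA control, 11.06 and 11.72 with KD1, and 11.34 and 11.95 with KD2. Each siRNA array was above each plasmid array, which did not hold with median scaling, and between the controls HK1 gave a log2 fold change of 0.81 (SE 0.22, adjusted p = 0.0579). HK2, the form of muscle and of many tumours, read 8.21, 8.24 and 8.22 in the OE control, 8.14, 8.20 and 8.24 with OE Sirt1, 10.33 and 10.12 in the siRNA control, 8.84 and 10.24 with KD1, and 9.53 and 10.54 with KD2. The 6 plasmid arrays were nearly equal, and the siRNA arrays were higher and spread widely within KD1 and KD2. HK2 rose between the controls by 2.00 (3.99-fold, SE 0.36, adjusted p = 0.0191). A second HK2 probe, analysed as a feature of its own, gave 1.48 (SE 0.20, adjusted p = 0.0171). GPI, which converts glucose 6-phosphate to fructose 6-phosphate, gave 0.77 (SE 0.28, adjusted p = 0.132).

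The 3 phosphofructokinase genes code for subunits of the enzyme that commits fructose 6-phosphate to glycolysis, and none passed the test. PFKL read 8.33, 8.57 and 8.30 in the OE control, 8.01, 8.43 and 8.51 with OE Sirt1, 8.80 and 8.79 in the siRNA control, 8.61 and 8.83 with KD1, and 8.37 and 8.93 with KD2. PFKM read 9.66, 9.59 and 9.78 in the OE control, 9.86, 9.73 and 9.81 with OE Sirt1, 9.74 and 9.20 in the siRNA control, 9.97 and 9.83 with KD1, and 9.52 and 9.72 with KD2. PFKP read 10.43, 10.43 and 10.30 in the OE control, 10.42, 10.38 and 10.30 with OE Sirt1, 10.93 and 11.05 in the siRNA control, 10.61 and 11.43 with KD1, and 10.90 and 11.68 with KD2. PFKP was higher on all 6 siRNA arrays than on all 6 plasmid arrays, whereas PFKL and PFKM overlapped. Between the controls the log2 fold changes were 0.39 for PFKL (adjusted p = 0.249), -0.21 for PFKM (0.452) and 0.60 for PFKP (0.173).

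Among the PFKFB enzymes, PFKFB3 and PFKFB4 rose between the controls and PFKFB2 did not pass. PFKFB3, a form with high kinase activity, read 9.71, 9.50 and 9.60 in the OE control, 9.43, 9.54 and 9.45 with OE Sirt1, 11.09 and 10.88 in the siRNA control, 10.40 and 11.42 with KD1, and 11.06 and 11.62 with KD2. PFKFB4 read 10.62, 10.61 and 10.37 in the OE control, 10.56, 10.54 and 10.76 with OE Sirt1, 12.39 and 12.22 in the siRNA control, 11.48 and 12.49 with KD1, and 12.05 and 12.85 with KD2. For both genes the siRNA arrays were all above the plasmid arrays, with KD1 1 the lowest and KD2 3 the highest of them. The increase between the controls was 1.38 for PFKFB3 (2.60-fold, SE 0.25, adjusted p = 0.0199) and 1.77 for PFKFB4 (3.40-fold, SE 0.28, adjusted p = 0.0147). The other PFKFB3 probe gave 1.04 (adjusted p = 0.0970 when each probe was its own feature). PFKFB2, the heart form, read 5.59, 6.57 and 5.74 in the OE control, 5.82, 5.80 and 5.78 with OE Sirt1, 5.56 and 5.57 in the siRNA control, 5.82 and 6.10 with KD1, and 5.59 and 5.64 with KD2. It was dim throughout, was not well above background on 3 arrays, and its high value was that of OE control 2 (log2 fold change between the controls -0.40, SE 0.23, adjusted p = 0.333).

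Aldolase cleaves fructose 1,6-bisphosphate. ALDOA, the form of muscle and most cells, read 12.17, 11.68 and 11.62 in the OE control, 11.41, 12.08 and 11.81 with OE Sirt1, 13.06 and 12.57 in the siRNA control, 11.79 and 12.57 with KD1, and 12.08 and 12.87 with KD2. ALDOC, the brain form, read 10.54, 10.34 and 9.90 in the OE control, 10.06, 10.27 and 10.32 with OE Sirt1, 12.52 and 12.12 in the siRNA control, 11.02 and 12.53 with KD1, and 11.92 and 12.9957 with KD2. ALDOC separated all siRNA arrays from all plasmid arrays, and ALDOA did not. ALDOC rose between the controls by 2.06 (4.17-fold, SE 0.41, adjusted p = 0.0250), and ALDOA gave 0.99 (SE 0.31, adjusted p = 0.0936).

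In the lower part of the pathway only PGK1 rose among TPI1, GAPDH, PGK1 and PGAM1 between the controls. PGK1, which makes the first ATP of glycolysis, read 11.94, 11.58 and 11.75 in the OE control, 11.82, 11.86 and 12.01 with OE Sirt1, 12.92 and 12.62 in the siRNA control, 12.16 and 12.53 with KD1, and 12.44 and 12.82 with KD2. The siRNA arrays were all above the plasmid arrays, and the difference between the controls was 1.02 (2.03-fold, SE 0.17, adjusted p = 0.0154). A second PGK1 probe gave 0.91 (adjusted p = 0.0434 with each probe as its own feature). TPI1, which interconverts the triose phosphates, gave 0.32 (adjusted p = 0.173) and PGAM1, the mutase, 0.42 (adjusted p = 0.131). GAPDH, which oxidises glyceraldehyde 3-phosphate and often serves as a reference gene, read 13.98, 13.88 and 13.98 in the OE control and 13.93 and 13.91 in the siRNA control. The GAPDH groups overlapped (log2 fold change -0.03, SE 0.11, adjusted p = 0.913), although its dimmer probes gave 0.35 and 0.44 (adjusted p = 0.234 and 0.198).

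The enolases, which form phosphoenolpyruvate, differed among themselves. ENO1, the form of most tissues, read 13.90, 13.88 and 13.89 in the OE control, 13.81, 13.83 and 13.95 with OE Sirt1, 13.90 and 14.08 in the siRNA control, 13.95 and 13.90 with KD1, and 14.02 and 14.06 with KD2. ENO2, the form named for neurons, read 5.51, 5.41 and 5.34 in the OE control, 5.60, 6.21 and 5.25 with OE Sirt1, 9.76 and 9.29 in the siRNA control, 7.00 and 9.49 with KD1, and 8.67 and 10.05 with KD2. ENO3, the muscle form, read 6.66, 6.77 and 6.51 in the OE control, 6.71, 7.02 and 7.20 with OE Sirt1, 6.72 and 6.65 in the siRNA control, 6.92 and 6.78 with KD1, and 6.55 and 6.75 with KD2. ENO2 was not well above background on any OE control array, rose in the siRNA control and took an intermediate level on KD1 1, while ENO1 and ENO3 stayed within a band of less than 1 log2 unit on all arrays. For a probe that is not well above background on any array of a group, that group was set, array by array, to the dimmest probe that was detected there, or to its own level where higher. On that basis ENO2 was at least 12.8-fold higher in the siRNA control than in the OE control. The measured means were 9.52 ± 0.33 (SD, n = 2) and 5.42 ± 0.08 (n = 3). The limma test of ENO2 (adjusted p = 0.0128) used the levels as read and does not test this bound. ENO1 gave 0.10 (adjusted p = 0.584) and ENO3 0.04 (adjusted p = 0.914). PKM, the pyruvate kinase of most dividing cells, gave 0.18 (SE 0.12, adjusted p = 0.384).

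At the branch from pyruvate, LDHA rose between the controls and LDHB did not pass. LDHA, the subunit that favours lactate formation, read 13.84, 13.71 and 13.81 in the OE control, 13.87, 13.78 and 14.04 with OE Sirt1, 14.27 and 14.29 in the siRNA control, 14.04 and 14.30 with KD1, and 13.97 and 14.04 with KD2. LDHB read 13.01, 13.33 and 13.27 in the OE control, 13.05, 13.15 and 13.17 with OE Sirt1, 12.81 and 13.09 in the siRNA control, 13.27 and 13.32 with KD1, and 13.24 and 13.15 with KD2. The LDHA controls did not overlap, those of LDHB did. LDHA rose by 0.50 (1.41-fold, SE 0.12, adjusted p = 0.0430), close to the top of the scale, and LDHB gave -0.25 (SE 0.13, adjusted p = 0.266). The dimmer LDHA probes gave 0.74 and 1.22 (adjusted p = 0.0462 and 0.0318 with each probe as its own feature, where the brightest probe had 0.0648).

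Of the pyruvate dehydrogenase kinases, PDK3 rose between the controls. It read 8.20, 8.10 and 8.17 in the OE control, 8.01, 7.91 and 8.54 with OE Sirt1, 9.32 and 9.40 in the siRNA control, 8.77 and 9.73 with KD1, and 9.34 and 9.89 with KD2. All siRNA arrays were above all plasmid arrays, which did not hold with median scaling, and the difference between the controls was 1.20 (2.30-fold, SE 0.27, adjusted p = 0.0364). With each probe as its own feature, this probe had an adjusted p of 0.0503 and the other PDK3 probe gave 1.22 (adjusted p = 0.0332). PDK1 read 4.96, 4.65 and 5.00 in the OE control, 5.05, 4.60 and 5.15 with OE Sirt1, 4.98 and 5.49 in the siRNA control, 5.27 and 5.69 with KD1, and 5.27 and 5.21 with KD2. The PDK1 probe was detected on siRNA control 2 and KD1 2 alone, so no fold is given.

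On the glycogen side PPP1R3C, GBE1 and PGM1 rose between the controls. PPP1R3C, a subunit that brings protein phosphatase 1 to glycogen and activates glycogen synthase, read 5.00, 4.92 and 4.85 in the OE control, 5.09, 4.91 and 5.13 with OE Sirt1, 7.91 and 8.24 in the siRNA control, 6.75 and 8.30 with KD1, and 7.50 and 8.46 with KD2. GBE1, the branching enzyme, read 7.07, 6.87 and 7.16 in the OE control, 6.95, 7.22 and 7.32 with OE Sirt1, 9.21 and 8.77 in the siRNA control, 7.82 and 8.96 with KD1, and 8.68 and 9.58 with KD2. PGM1, which interconverts glucose 1-phosphate and glucose 6-phosphate, read 10.76, 10.71 and 10.51 in the OE control, 10.60, 10.62 and 10.66 with OE Sirt1, 11.60 and 11.54 in the siRNA control, 11.18 and 11.80 with KD1, and 11.46 and 11.66 with KD2. In these 3 genes no siRNA array overlapped a plasmid array. PPP1R3C, not well above background on any of the 6 plasmid arrays, was at least 4.71-fold higher in the siRNA control than in the OE control. The measured means were 8.08 ± 0.23 (SD, n = 2) and 4.92 ± 0.07 (n = 3). The limma test of PPP1R3C (adjusted p = 0.00849) used the levels as read and does not test this bound. GBE1 rose by 1.96 (3.88-fold, SE 0.33, adjusted p = 0.0154) and PGM1 by 0.91 (1.88-fold, SE 0.17, adjusted p = 0.0195).

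The remaining glycogen genes did not pass between the controls, except that PYGL passed with the authors' normalised values. GYS1, glycogen synthase, read 6.02, 6.66 and 6.61 in the OE control, 6.25, 6.55 and 7.04 with OE Sirt1, 7.51 and 7.18 in the siRNA control, 6.91 and 7.66 with KD1, and 7.12 and 7.80 with KD2. Its controls did not overlap (log2 fold change 0.92, SE 0.31, adjusted p = 0.113). UGP2, which makes UDP-glucose, read 11.64, 11.82 and 11.65 in the OE control, 11.63, 11.55 and 11.76 with OE Sirt1, 11.56 and 11.54 in the siRNA control, 11.73 and 11.97 with KD1, and 11.86 and 11.99 with KD2. Its siRNA control arrays were below the OE control and KD arrays (controls -0.16, SE 0.12, adjusted p = 0.467).

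The glycogen phosphorylases release glucose 1-phosphate. PYGL, the liver form, read 10.27, 10.32 and 10.29 in the OE control, 10.35, 10.25 and 10.44 with OE Sirt1, 10.62 and 10.58 in the siRNA control, 10.43 and 10.53 with KD1, and 10.63 and 10.78 with KD2. PYGB, the brain form, read 8.70, 8.54 and 8.72 in the OE control, 8.60, 8.51 and 8.49 with OE Sirt1, 8.33 and 8.46 in the siRNA control, 8.22 and 7.95 with KD1, and 8.46 and 8.16 with KD2. PYGB was the 1 gene of the 32 that was lower on every siRNA array than on every plasmid array, which did not hold with median scaling, and PYGL overlapped. The log2 fold changes between the controls were 0.31 for PYGL (SE 0.10, adjusted p = 0.112) and -0.26 for PYGB (SE 0.13, adjusted p = 0.259).

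**Figure D2:**
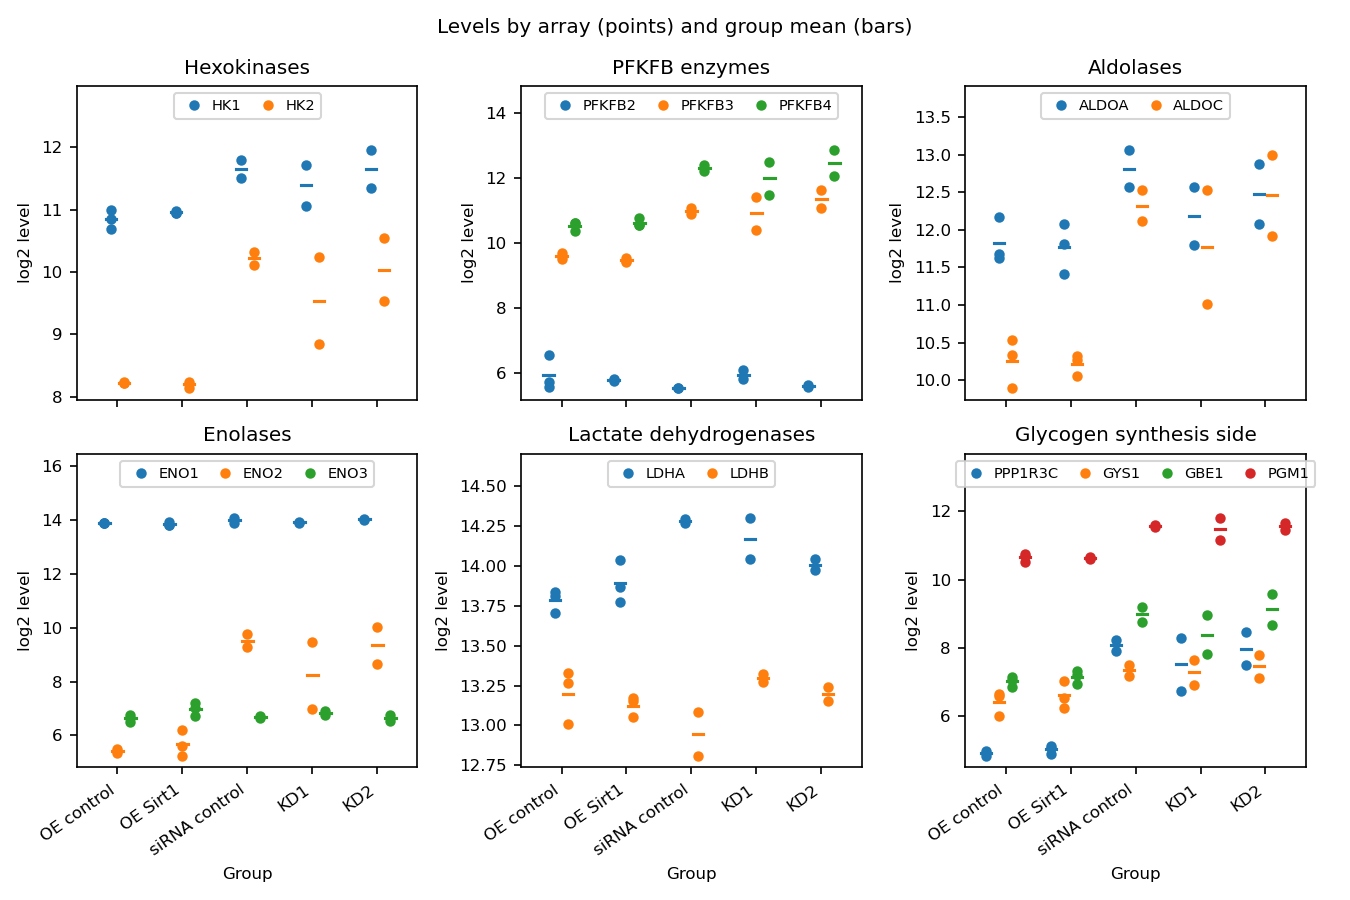
Log2 levels of hexokinases, PFKFB enzymes, aldolases, enolases, lactate dehydrogenases and 4 glycogen genes are plotted by group, with a point for each array and a short bar for the group mean. HK2, ALDOC, ENO2, PPP1R3C and GBE1 sit low on all plasmid arrays and higher, with a wide spread in KD1 and KD2, on the siRNA arrays; ENO1 stays near 13.9 and LDHB near 13.2.

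For isoforms of a step, and for glycogen synthase over a phosphorylase (GYS1 over PYGL), the change of the log2 ratio within each array was also measured. Of 12 pairs computed, the ratio differed between the controls by 1.19 for HK2 over HK1, 1.07 for ALDOC over ALDOA, 0.81 for PFKP over PFKM, 0.75 for LDHA over LDHB, 0.61 for GYS1 over PYGL and 0.56 for PYGL over PYGB. The control arrays did not overlap in any of the 12 ratios, so this does not set these 6 apart. Several pairs put first a gene that rose between the same controls, so the ratios are no separate evidence. With 2 arrays against 3 an exact permutation test, two-sided, cannot go below p = 0.1. The 6 pairs above reached that p in this test (0.12 after adjustment over the 12 pairs). PFKFB4 over PFKFB3 differed by 0.39 and PFKP over PFKL by 0.21, each with an exact p of 0.2. LDHA lay near the top of the scale. No value is given for pairs with ENO2 or PDK1, which were not well above background on the OE control arrays, nor for SLC2A1 over SLC2A3, since SLC2A3 lay in a narrow band near the top of the scale.

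The 11 calls between the controls rested on both siRNA control arrays. Without siRNA control 1 or without siRNA control 2, limma called 0 of the 32 genes and 0 of all genes, with 13 and 19 of the 32 higher at an unadjusted p below 0.05. The lone remaining array is then assumed to vary like the other groups. The log2 fold changes of the 11 genes ran from 0.51 to 3.87 and from 0.48 to 4.34 in these fits. Without OE control 2 the count was 7 and without OE control 3 it was 5 (PFKFB4, PGK1, ENO2, PPP1R3C and GBE1).

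Which genes passed between the controls also moved with the scaling. With the authors' normalised values 17 of the 32 genes passed, beside 1055 of all 11458 genes. The 17 were the 11 and also SLC2A1 (adjusted p = 0.0153), HK1 (0.0106), GPI (0.0444), ALDOA (0.0225), PGAM1 (0.0450) and PYGL (0.0467). Scaling by the array median without quantiles raised the median of all genes by 0.35 and called 18 of the 32 genes, all of them higher. Over all 11458 genes it called 1278, of which 1277 were higher and 1 lower. LDHA was not among those 18 (log2 fold change 0.64, adjusted p = 0.0787), and HK1 (1.16, adjusted p = 0.00217) and ALDOA (1.31, adjusted p = 0.000899) were. PFKM, GAPDH, LDHB, UGP2 and PYGB, which were below 0 with quantile normalisation, lay above 0 with median scaling, at 0.18, 0.11, 0.06, 0.19 and 0.15, all below that shift. HK2, PFKFB3, PFKFB4, ALDOC, PGK1, ENO2, PDK3, PPP1R3C, GBE1 and PGM1 passed under all 3 scalings.

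With the SIRT1 plasmid, the 32 genes lay near the OE control: the median log2 fold change was 0.02, beside 0.01 over all genes, and 16 genes were above 0 and 16 below, where 54.8% of all genes were above 0. The highest values were those of ENO3 (0.33, SE 0.13), ENO2 and GYS1 (0.18, SE 0.28), and the lowest those of PFKFB2 (-0.16, SE 0.21), PFKFB3 (-0.13, SE 0.23) and PYGB (-0.12, SE 0.12), each with a limma adjusted p of 1.00. No value is given for ENO2, which was not well above background on the OE control arrays. ENO3 was the gene below an unadjusted 0.05, and its groups overlapped. SLC2A1 was the 1 gene whose plasmid groups did not overlap, higher with OE Sirt1 by 0.15 (SE 0.15), where 5.13% of all genes were higher and 3.26% lower without overlap. The 95% interval was -0.73 to 0.68 for HK2, -0.13 to 0.34 for LDHA, -0.20 to 0.48 for PGK1 and -0.22 to 0.22 for GAPDH. Because the SIRT1 probe did not differ, these arrays do not show how far the plasmid raised SIRT1.

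With the first siRNA, KD1, the median over the 32 genes was -0.10, beside -0.01 over all genes, with 9 genes above 0 and 23 below, where 49.1% of all genes were above 0. The lowest values belonged to ENO2 (-1.28, SE 0.67, adjusted p = 0.601), HK2 (-0.68, SE 0.39, adjusted p = 0.659) and ALDOA (-0.63, SE 0.34, adjusted p = 0.616). The highest were those of PFKM (0.43, SE 0.17, adjusted p = 0.459), PFKFB2 (0.40, SE 0.26, adjusted p = 0.704) and LDHB (0.35, SE 0.14, adjusted p = 0.474). Both KD1 arrays were below both siRNA control arrays in 6 genes (SLC2A1, SLC2A3, TPI1, PGK1, PYGL and PYGB), beside 20.1% of all genes. They were above them in 5 (PFKM, PFKFB2, ENO3, LDHB and UGP2), beside 18.1%. A second TPI1 probe gave 0.03 with KD1, and a second PGK1 probe -0.12. The low values of ENO2 and HK2 came from KD1 1: without that array the differences were -0.04 for ENO2, 0.02 for HK2 and -0.24 for ALDOA, and the median over the 32 genes was 0.11. PFKM moved with the control arrays, to 0.70 without siRNA control 1 and 0.16 without siRNA control 2, and LDHB to 0.21 and 0.49.

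With the second siRNA, KD2, the median was -0.00 (-0.000545) beside -0.03 over all genes, and 16 genes lay on each side of 0, where 45.3% of all genes were above 0. UGP2 was highest (0.38, SE 0.13, adjusted p = 0.256), followed by PFKFB3 (0.36, SE 0.28, adjusted p = 0.627) and PFKP (0.31, SE 0.27, adjusted p = 0.684). ALDOA was lowest (-0.34, SE 0.34, adjusted p = 0.737), followed by LDHA (-0.27, SE 0.13, adjusted p = 0.416) and SLC2A1 (-0.23, SE 0.18, adjusted p = 0.639). Both KD2 arrays were above both control arrays in 5 genes (PFKFB2, GAPDH, LDHB, UGP2 and PYGL) and below them in 3 (SLC2A3, LDHA and PKM). Of all genes, 17.9% and 24.3% were so. This holds for the brightest probe of each gene. The dimmer GAPDH probes gave -0.48 and -0.06 with KD2, and the dimmer LDHA probes -0.17 and 0.37. Without KD2 2 the value of ALDOA was 0.06, that of SLC2A1 0.06, that of PFKFB3 0.64 and that of PFKP 0.70. Without KD2 3, PFKFB3 gave 0.08 and PFKP -0.09.

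Both siRNAs share the same control arrays, so a value that both have in common may come from those. UGP2 gave 0.30 with KD1 (adjusted p = 0.523) and 0.38 with KD2 (adjusted p = 0.256), and the mean of both was 0.34 (SE 0.11, adjusted p = 0.302). Its 3 other probes were also above 0 with each siRNA, from 0.26 to 1.00. LDHB gave 0.30 in the mean (SE 0.12, adjusted p = 0.412) and PFKM 0.29 (SE 0.15, adjusted p = 0.518). Without siRNA control 1 the mean was 0.16 for LDHB and 0.56 for PFKM, and without siRNA control 2 it was 0.44 and 0.02. At the low end of the mean were ENO2 (-0.72, SE 0.58, adjusted p = 0.712), ALDOA (-0.48, SE 0.30, adjusted p = 0.603) and HK2 (-0.43, SE 0.34, adjusted p = 0.703). Without KD1 1 and KD2 2 the mean for ENO2 was 0.24, that for HK2 0.17 and that for ALDOA -0.09.

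KD1 against KD2 needs no control arrays. The median over the 32 genes was -0.17, beside 0.01 over all genes. With single arrays left out this median ran from -0.28 to 0.12. The lowest values were ENO2 (-1.12, SE 0.67, adjusted p = 0.542), GBE1 (-0.74, SE 0.36, adjusted p = 0.442) and ALDOC (-0.69, SE 0.45, adjusted p = 0.587). The highest were PFKFB2 (0.35, SE 0.26, adjusted p = 0.639), PFKM (0.28, SE 0.17, adjusted p = 0.548) and PDK1, for which no value is given because it was detected on 1 of these 4 arrays. Without KD1 1 the comparison gave 0.12 for ENO2, -0.17 for GBE1 and 0.07 for ALDOC, and without KD1 1 and KD2 2 it gave -0.56, -0.62 and -0.47. PFKM then gave 0.11.

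Array by array, the genes moved together within the siRNA groups. KD1 1 was below KD1 2 in 27 of the 32 genes, where 45.7% of all genes were lower, and by over 1 log2 unit in 7 genes, where 1.36% of all genes were. KD2 2 was below KD2 3 in 27 of the 32 genes, beside 47.3% of all genes, and by over 1 in 3 genes, beside 1.11%. Of the 6 siRNA arrays, KD1 1 was the lowest in 18 genes and KD2 3 the highest in 16, where 17.2% and 18.9% of all genes had these arrays in these places. The 11 genes that rose between the controls were picked for high levels on the siRNA control arrays, which favours lower values on other arrays. Each was lower on KD1 1 than the mean of the siRNA control, by a median of -0.82 (-2.52 to -0.24). On KD2 3 the same genes had a median of 0.53 relative to that mean, with LDHA alone below it. Still, 12 of the 32 genes were higher on all 6 siRNA arrays than on all 6 plasmid arrays and 1 was lower, where 5.5% and 5.18% of all genes were. With median scaling 13 were higher and 0 lower. KD1 and KD2 arrays lie within 1 group each, and neither a run nor a day is given for them, so no batch could be tested.

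**Figure D3:**
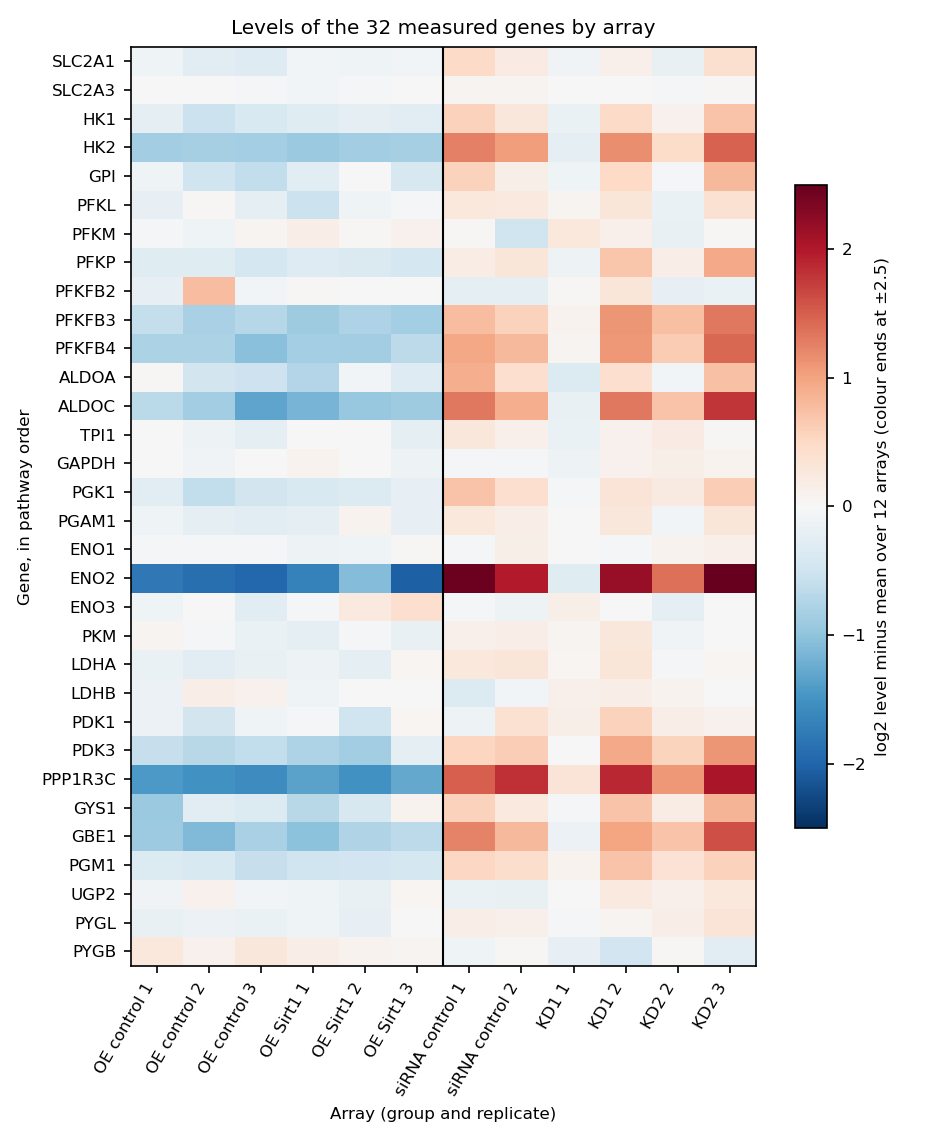
Each cell gives the log2 level of a gene (rows, in pathway order) on an array (columns), minus the gene's mean over the 12 arrays, with a line between plasmid and siRNA arrays. ENO2, PPP1R3C, ALDOC, GBE1 and HK2 form the darkest rows; KD1 1 is the palest siRNA column, and SLC2A3, GAPDH and ENO1 are pale throughout.

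A list of 22 hypoxia-induced genes outside glycolysis, 20 of them measured, moved with the same arrays. This list too was chosen with earlier results of these data known. Its mean centred level was -0.96 to -0.75 on the plasmid arrays, 1.10 and 0.91 in the siRNA control, -0.01 and 1.16 with KD1, and 0.65 and 1.42 with KD2. The mean centred level of the 32 genes was -0.43 to -0.30 on the plasmid arrays, 0.47 and 0.36 in the siRNA control, -0.03 and 0.53 with KD1, and 0.22 and 0.64 with KD2. Both lists were lowest on the plasmid arrays and put the siRNA arrays in the same order. KD1 1 was below KD1 2 in 20 of the 20 hypoxia-induced genes, beside 45.7% of all genes. KD2 2 was below KD2 3 in 19, beside 47.3%. Between the controls 18 of the 20 rose and 0 fell, beside 3.78% and 1.27% of all genes, with a median of 1.68. MXI1, ANGPTL4 and SLC6A8 lay below the dimmest detected probe on every OE control array, and their fitted values enter this median and the mean level. The part of low oxygen in the levels of the glycolytic genes was not tested. HIF1A, the hypoxia-inducible factor subunit, gave -0.11 between the controls (SE 0.23, adjusted p = 0.810) and EPAS1 -0.02 (adjusted p = 0.945).

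**Figure D4:**
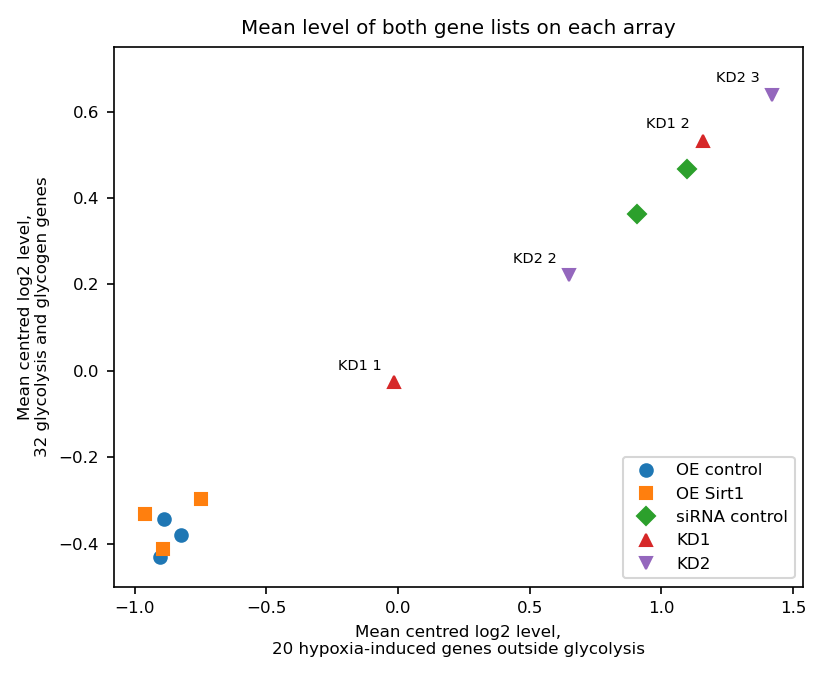
For each of the 12 arrays, the mean centred log2 level of 20 hypoxia-induced genes outside glycolysis (x axis) is plotted against that of the 32 glycolysis and glycogen genes (y axis), with a symbol for each group. The 6 plasmid arrays lie together at the lower left, and KD1 1 (-0.01, -0.03) lies between them and the other siRNA arrays.

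Genes of neighbouring pathways were compared between the controls list by list, where 3.78% of all genes were called higher and 1.27% lower. A single call in a list this short is not read as a result about its pathway. Of 8 other sugar transporters measured, SLC2A5, the fructose transporter, rose by 2.03 (SE 0.41, adjusted p = 0.0260) and SLC2A10 by 0.92 (SE 0.22, adjusted p = 0.0412). Of 16 other glycogen genes, STBD1, which tethers glycogen to membranes, rose by a fitted 1.58 (SE 0.31, adjusted p = 0.0232). PGM2 rose by 0.71 (SE 0.18, adjusted p = 0.0468), and EPM2A, the glycogen phosphatase laforin, fell by 0.75 (SE 0.15, adjusted p = 0.0264). Among 7 other glycolysis isozymes PGAM4, a close copy of PGAM1, rose by 0.55 (SE 0.13, adjusted p = 0.0366), and whether its probe tells the copies apart was not tested. Of 5 gluconeogenesis genes PCK1, the cytosolic carboxykinase, rose by a fitted 1.09 (SE 0.22, adjusted p = 0.0250), to 6.06 and 6.00. On the OE control arrays PCK1 read 5.22, 4.68 and 4.93, and STBD1 read 5.10, 5.63 and 5.01. All these lay below the dimmest detected probe of their array (5.83, 5.79 and 5.90), so neither fitted value is a measured fold. Of 11 pentose phosphate genes PRPS1, which makes phosphoribosyl pyrophosphate, fell by 0.71 (SE 0.14, adjusted p = 0.0214). No gene passed among 7 other monocarboxylate transporters and chaperones (SLC5A8 -0.40 to SLC16A4 0.38), 8 genes of pyruvate dehydrogenase and its regulators (PDHA1 -0.33 to PDHX 0.22), 5 of fructose, galactose and sorbitol metabolism (GALT -0.25 to GALM 0.21) and 8 regulators of glycolytic genes (ESRRA -0.56 to TXNIP 0.42).

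In the SIRT1 comparisons these neighbouring lists held 2 genes that passed. Of all genes, 0.436% passed with KD2, 0.201% in the mean of both siRNAs and 0.62% in KD1 against KD2. TXNIP, which restrains glucose uptake, read 10.45 and 10.71 in the siRNA control, 9.85 and 9.55 with KD1, and 9.81 and 9.59 with KD2. All 4 KD arrays were below the siRNA control arrays, which both siRNAs share. On the OE control arrays TXNIP read 10.24, 10.17 and 10.08, below both siRNA control arrays. TXNIP fell by 0.89 with KD2 (SE 0.15, adjusted p = 0.0412) and by 0.88 in the mean of both siRNAs (SE 0.13, adjusted p = 0.0283), and gave -0.88 with KD1 (SE 0.15, adjusted p = 0.0676). PRPS1 was higher with KD1 than with KD2 by 1.00 (SE 0.15, adjusted p = 0.0196). With the siRNA arrays alone in the fit, no gene passed in that comparison. No gene of these lists passed with OE Sirt1, and none reached an unadjusted p below 0.05 there.

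Markers of other cell types were compared as whole lists. Of 7 leukocyte markers 4 were measured, and between the controls CSF1R rose by 2.66 (SE 0.51, adjusted p = 0.0214) and CD68 by 1.06 (SE 0.17, adjusted p = 0.0150), while CD14 gave 0.04 (adjusted p = 0.867) and LYZ -0.06 (adjusted p = 0.863). PTPRC and CD3D were not detected on any array. Relative to the siRNA control, all 4 were below 0 without overlap with KD1 (-1.77 to -0.18) and with KD2 (-0.83 to -0.33). Of all genes, 20.1% were lower without overlap with KD1 and 24.3% with KD2. With either siRNA 0 of the 4 passed the test. The lowest value with each siRNA was that of CSF1R, which varied within the groups. It read 9.08 and 8.96 in the siRNA control, 6.33 and 8.16 with KD1, and 7.46 and 8.92 with KD2. The summed log2 level of the measured leukocyte markers was 32.6 to 32.8 in the OE control, 32.4 to 32.6 with OE Sirt1, 36.4 to 36.5 in the siRNA control, 31.9 to 34.3 with KD1 and 33.3 to 34.8 with KD2.

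Of 7 fibroblast markers 5 were measured, with DCN and THY1 not detected on any array. Between the controls COL1A2 rose by 0.86 (adjusted p = 0.0199) and PDGFRB by 0.92 (adjusted p = 0.0304), whereas COL3A1 gave -0.34 (adjusted p = 0.131), LUM -0.44 (adjusted p = 0.0863) and COL1A1 -0.01 (adjusted p = 0.984). Their summed levels were 40.0 to 40.5 in the OE control, 40.7 to 41.1 with OE Sirt1, 41.1 to 41.4 in the siRNA control and 41.2 to 42.6 with the SIRT1 siRNAs. COL3A1 rose with KD1 (0.83, adjusted p = 0.0472) and with KD2 (0.99, adjusted p = 0.0122), and 3 of the 5 were above 0 and 2 below with each siRNA. On the low side were PDGFRB, at -0.39 with KD1 (adjusted p = 0.619) and -0.64 with KD2 (adjusted p = 0.243), and COL1A2, at -0.28 (adjusted p = 0.695) and -0.30 (adjusted p = 0.498).

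Of the 10 epithelial markers, 6 were above 0 and 4 below between the controls, with a median of 0.06, and KRT18 was the 1 that passed, and was lower in the siRNA control (log2 fold change -0.99, adjusted p = 0.0141). The 1 measured endothelial marker, PECAM1, was detected on 2 arrays. In bulk RNA, more cells of a type and more RNA per cell cannot be told apart, and the part of these markers in the levels of the glycolytic genes was not tested.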

How the data were processed

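GenomeStudio 2010.1 is named in the submitters' processing notes. The authors deposited raw bead-array intensity values for 47323 probes with a detection p-value for each, stored as 1 minus p, and a normalised log2 table; the sources do not state its method. For the 47231 regular probes, neqc (offset 16) in limma 3.58.1 under R 4.3.3 corrected background from the detection values, applied quantile normalisation and took log2. Probes with a detection p-value below 0.01 on at least 2 arrays were kept, and each gene was represented by its brightest probe with a single annotated symbol, which gave 11458 genes. One limma fit with a mean for each of 5 groups over 12 arrays (7 residual degrees of freedom, prior 3.63) gave moderated two-sided tests, adjusted by Benjamini and Hochberg over all genes at 0.05. Because the spread is shared over groups, the wide KD1 and KD2 arrays enter every standard error. The number of arrays limits the precision. The pipeline was tested on simulated data. Alternatives were the authors' values, scaling, variance model, arrays in the fit, detection filter, probe choice, replicate block and arrays left out; leaving out KD1 1 and KD2 2 was chosen after seeing the data. Genes named per comparison were all that passed, or else the 3 highest and 3 lowest, and of related lists those that passed or else the extremes. The genes and lists were chosen with earlier results of these data known.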

Additional observations from a re-analysis of the deposited data

Results flagged for a closer look

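PYGL, the liver glycogen phosphorylase, was picked out because both KD1 arrays lay below and both KD2 arrays above the siRNA control arrays, with log2 fold changes of -0.12 and 0.10. Tested directly, KD1 minus KD2 was -0.23 (SE 0.11, limma adjusted p = 0.453). Such opposite sides were found in 397 genes, 3.46% of all genes, and in 1 of the 32.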

How the results depend on the processing

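In the SIRT1 comparisons 0 of the 32 genes passed under every alternative run. Between the controls, the count of 11 became 17 with the authors' values and 18 with median scaling without quantiles, and ran from 0 to 13 when single arrays were left out. Median scaling shifted the median of all genes by 0.27 for OE Sirt1, -0.23 for KD1, -0.34 for KD2, -0.29 for their mean, 0.10 for KD1 against KD2 and 0.35 between the controls, and the medians of the 32 genes to 0.22, -0.32, -0.23, -0.27 and, between the controls, 0.83; the medians of the 32 genes are therefore read against these shifts. With it the calls over all genes between the controls went from 433 higher and 145 lower to 1277 higher and 1 lower. Under median scaling OE Sirt1 gave PFKFB2 0.00299, PFKFB3 0.15 and PYGB 0.16, and the mean of the siRNAs gave PFKM -0.0248. Without KD1 1 and KD2 2, the medians were 0.11 for KD1 and 0.18 for the mean; KD1 gave HK2 0.0221, KD2 gave ALDOA 0.0582 and SLC2A1 0.058, the mean gave ENO2 0.24 and HK2 0.17, and 16 of the 32 genes were called between the controls. With these or single arrays left out, ranges were -0.0287 to 0.37 for GYS1 and -0.35 to 0.14 for PFKFB2 with OE Sirt1, -1.38 to 0.0221 for HK2 with KD1, -0.73 to 0.0582 for ALDOA, -0.53 to 0.058 for SLC2A1 and -0.0852 to 0.70 for PFKP with KD2, -1.34 to 0.24 for ENO2 and -0.78 to 0.17 for HK2 in the mean, and -2.36 to 0.12 for ENO2 and -1.44 to 0.0673 for ALDOC in KD1 against KD2. The medians of the 32 genes then ran from -0.37 to 0.11 for KD1 and from -0.28 to 0.12 for KD1 against KD2.

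Calls over all genes for KD1 (20), KD2 (50), their mean (23), KD1 against KD2 (71) and the controls (578) were, in that order, 75, 167, 91, 162 and 1055 with the authors' values; 33, 82, 66, 1 and 1278 with median scaling; and 77, 171, 72, 162 and 1011 with a trended robust variance. With the siRNA arrays alone they were 0, 1, 1 and 0. Probes detected on all 12 arrays gave 44, 128, 47 and 115. Without a detection filter KD1 gave 3 and the controls 297, and with every probe as its own feature KD1 gave 3. Without KD1 1 and KD2 2, KD1 gave 2, KD2 gave 73, KD1 against KD2 gave 1 and the controls 1087. With single arrays left out they ran from 0 to 1, 2 to 50, 2 to 36, 0 to 67 and 0 to 765, and from 0 to 1 for OE Sirt1.

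Same-numbered arrays were not treated as pairs in the main fit. Correlations of same-numbered deviations were -0.16, -0.11 and 0.03 in the plasmid groups and -0.02 for the siRNA control with KD1. They were 0.15 for siRNA control 2 with KD2 2 and -0.36 for KD1 2 with KD2 2. In groups of 2 arrays the deviations mirror each other, so these values cannot settle whether the arrays were paired. With the replicate block, calls over all genes were 2, 1, 4, 0 and 327, and 11 of the 32 genes were still called between the controls. For single named genes, 514 values kept direction and side of the threshold, 42 lost the call and 18 changed sign, all 18 among genes that had not passed. The cause of these differences was not tested.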
